A study of Mus musculus with 9 samples.

Results

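The genes described here build, read and erase chromatin marks. They are the remodelling ATPases and subunits named Smarc and Chd, the histone deacetylases (Hdac) and sirtuins (Sirt), the lysine demethylases (Kdm) and methyltransferases (Kmt), the core of Polycomb repressive complex 2 (PRC2: Ezh1, Ezh2, Eed and Suz12), the bromodomain proteins (Brd), the chromobox proteins (Cbx) and the DNA methyltransferases (Dnmt). A probe set belonged to the group when the platform annotation gave it exactly 1 gene symbol and that symbol was one of the 4 PRC2 genes or began with a class name (followed by a digit for Chd, Brd and Cbx). The rule found 177 probe sets for 77 genes, out of 36701 probe sets in all and 29131 with 1 symbol. The rule uses symbols and no measured value, but it was chosen with earlier results of these data known.

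Each array was hybridised with RNA of GFP-positive retinal cells from mouse pups at postnatal day 8, homozygous for a Tie2-GFP transgene and injected with APB5, a neutralizing antibody against PDGFRb, from day 0 to day 7. Tie2 is an endothelial receptor whose promoter is also active in some blood cells, and PDGFRb is the receptor by which pericytes are recruited to growing vessels. Retinas were pooled before sorting, and nothing in the labels says whether the replicates came from separate pools, so every SD below is a spread between arrays that may be technical. The Affymetrix series comes as 3 designs, A, B and C, with different probe sets and 3 replicate arrays each. Design A held 68 of the members, design B 65 and design C 44.

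All 9 arrays belong to this 1 condition. No contrast with untreated animals exists here, so what follows describes levels and makes no test of an effect of the antibody.

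DNA in the nucleus is wrapped around histones, and the classes act on that packaging in different ways. BAF complexes, built from Smarc proteins around the ATPase Smarca4 or Smarca2, slide or evict nucleosomes. Chd4 is the ATPase of the NuRD complex, which joins remodelling with the deacetylases Hdac1 and Hdac2. Acetyl groups are removed by Hdac and Sirt enzymes and bound by bromodomains. Kmt enzymes add methyl groups to histone lysines and Kdm enzymes remove them. PRC2 writes the repressive Polycomb mark, which some Cbx proteins read, while the HP1 proteins Cbx1, Cbx3 and Cbx5 bind heterochromatin. Dnmt1 copies DNA methylation at replication, and Dnmt3a and Dnmt3b set it anew. In endothelial cells Hdac7 is known for its part in vessel integrity, and Smarca4 and Ezh2 for parts in vascular development.

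Levels are given as the deposited intensity and as a percentile, which ranks a probe set on a scale of 0 to 100 within its own array and is the mean of 3 replicate ranks. A probe set was called above the floor when its intensity exceeded the 40th percentile of its array on all 3 arrays, and in the upper band when it exceeded the 75th percentile on all 3. Probe sets differ in how well they hybridise, and designs hold different transcripts, so an order of genes by percentile is an order of probe sets and not of transcript amounts. The sort was checked with marker genes. Of 16 measured pan-endothelial genes, 14 had a probe set in the upper band, where 36% of all genes had one, against 0 of 10 mural genes, 1 of 8 Muller glial and astrocytic genes, 1 of 10 microglial genes, 3 of 13 neuronal and photoreceptor genes and 0 of 7 erythroid and platelet genes. At the floor the lists lay closer together, with all 16 pan-endothelial genes above it, 7 of 10 mural, 8 of 13 neuronal, 4 of 8 glial, 4 of 10 microglial and 4 of 7 erythroid genes, against 72.4% of all genes.

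The chromatin genes as a whole lay above the middle of the arrays. Their median percentile was 63.5, with a lower and upper quartile of 36.9 and 82.1, beside a median of 52.1 for all 29131 named probe sets. Above the floor were 124 of the 177 members (70.1%), against 58.7% of all named probe sets, and 60 (33.9%) were in the upper band, against 24.2%. Per design, 49 of 68 were above the floor on A (all named 58.5%), 45 of 65 on B (59.3%) and 30 of 44 on C (58.1%). By gene, 71 of 77 had at least 1 probe set above the floor, against 72.4% of all 15964 genes, and 49 had 1 in the upper band, against 36%. A gene with more probe sets can pass more easily, and the members had 2.30 probe sets per gene on average, against 1.82 over all genes. Among genes with a single probe set, 26 of 30 members were above the floor and 16 in the upper band, against 60.4% and 23.8% of all 8319 genes with 1 probe set.

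The 6 genes with no probe set above the floor were the demethylases Kdm1a, Kdm1b and Kdm8, the HP1 protein Cbx3, the Polycomb reader Cbx7 and the ISWI-type ATPase Smarca1. The floor is a position and not a detection limit, so these transcripts are not shown to be absent.

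**Figure D1:**
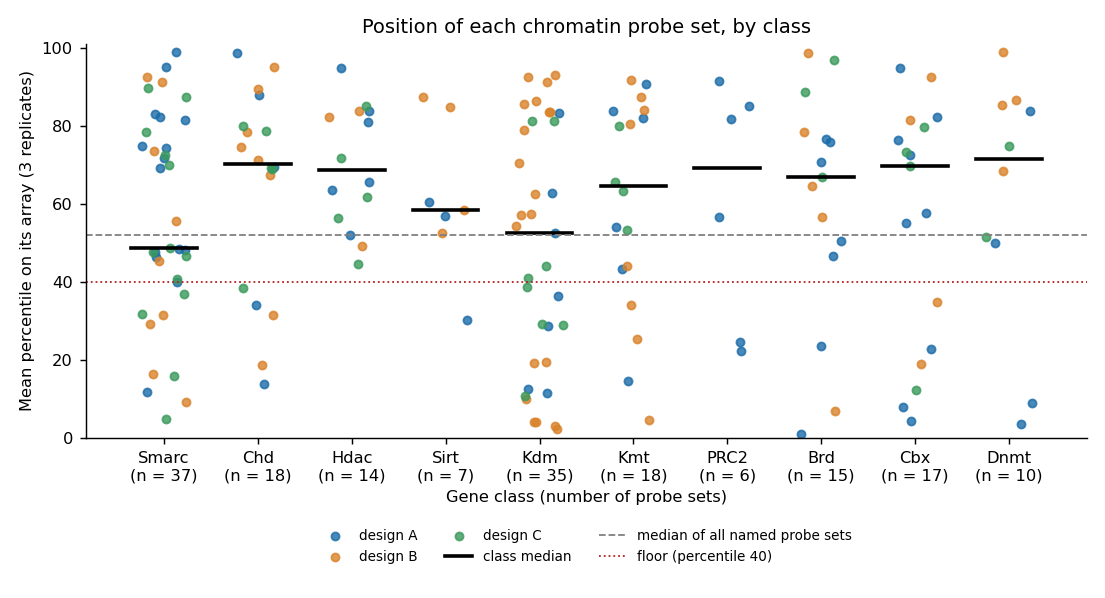
Mean percentile over 3 replicate arrays (vertical axis, 0 to 100) of each of the 177 probe sets, by class (horizontal axis) and coloured by array design. Black bars are class medians, from 48.6 for Smarc to 71.6 for Dnmt, the dashed line is the median of all named probe sets at 52.1 and the dotted line is the floor at 40; every class but Hdac has points below the floor as well as above it.

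Across the classes, median percentiles ran from 48.6 to 71.6. Dnmt lay highest at 71.6, followed by Chd at 70.3, Cbx at 69.8, PRC2 at 69.2, Hdac at 68.7, Brd at 66.9 and Kmt at 64.6. Sirt lay at 58.4, Kdm at 52.5 and Smarc at 48.6. The Smarc median was below the 52.1 of all named probe sets, but this side turned without replicate 3 (53.2 against 52.2), with plain probe set names alone (55.6 against 53.7) and with the mean per gene (62.8 against 52.1). Taken per replicate number over the 3 designs, the class medians of Dnmt (72.2, 73.1 and 69.5), Cbx (71.4, 67.5 and 64.7), PRC2 (73.3, 67.3 and 67.1) and Brd (67.1, 66.4 and 70.2) overlapped. Those of Chd (73.7, 70.6 and 71.3) overlapped with Dnmt, Cbx and PRC2 but lay above Brd, and those of Hdac (68.6, 69.0 and 68.5) lay within the ranges of Cbx, PRC2 and Brd. The medians of Kmt (66.1, 61.0 and 66.6) overlapped with Cbx, Brd and Sirt (58.3, 61.7 and 55.3). The medians of Kdm (52.7, 51.7 and 52.1) lay below those of the other classes except Smarc (50.1, 52.1 and 55.3). Labels do not say that arrays of equal number on different designs share RNA.

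This order depended strongly on how a gene's probe sets were combined. When each gene was given by its strongest probe set, all classes but Sirt (60.4) and Cbx (68.7) had medians between 79.9 and 86.0, beside 65.9 for all genes, and Smarc rose to 82.3 and Kdm to 81.3. Such a median rises with the number of probe sets. Over all genes it was 52.9 with 1 probe set, 71.3 with 2, 79.3 with 3, 84.9 with 4 and 85.8 with 5. For member genes with those numbers it was 78.9, 82.3, 81.2, 89.8 and 84.1. No single class was set against genes with equal numbers of probe sets. On design A alone, the Smarc median was 71.8, that of Kdm 36.5 and that of Dnmt 29.5. The order of the class medians is therefore a statement about these probe sets only.

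Shares above the floor also varied between the classes, several of which hold few probe sets. All 14 Hdac probe sets were above it, as were 6 of 7 Sirt, 12 of 15 Brd and 8 of 10 Dnmt probe sets, beside the 58.7% of all named probe sets. Counts were 13 of 18 for Chd, 13 of 18 for Kmt, 25 of 37 for Smarc, 4 of 6 for PRC2 and 11 of 17 for Cbx. Kdm had a smaller share than all named probe sets, at 18 of 35 (51.4%), but its side turned with the floor. With the floor at the 50th percentile the same count stood against 48.8% of all named probe sets, and Smarc was the class below that share, at 18 of 37 (48.6%). With the 90th percentile of tissue-foreign probe sets, those of a list of genes typical of other organs, as the floor, Kdm had 14 of 35 (40%) against 37.1%, and Cbx was the class below, at 5 of 17 (29.4%). That threshold lay between percentiles 38.8 and 43.2 on design B but between 83.3 and 85.9 on design C. Design B held 20 of the 35 Kdm and 4 of the 17 Cbx probe sets, and the part of this mix of designs was not tested. In the upper band, where 24.2% of all named probe sets lay, were 3 of 6 PRC2 probe sets, 8 of 18 Kmt, 6 of 14 Hdac, 4 of 10 Dnmt, 6 of 17 Cbx, 5 of 15 Brd, 11 of 35 Kdm, 2 of 7 Sirt, 5 of 18 Chd and 10 of 37 Smarc probe sets.

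**Figure D2:**
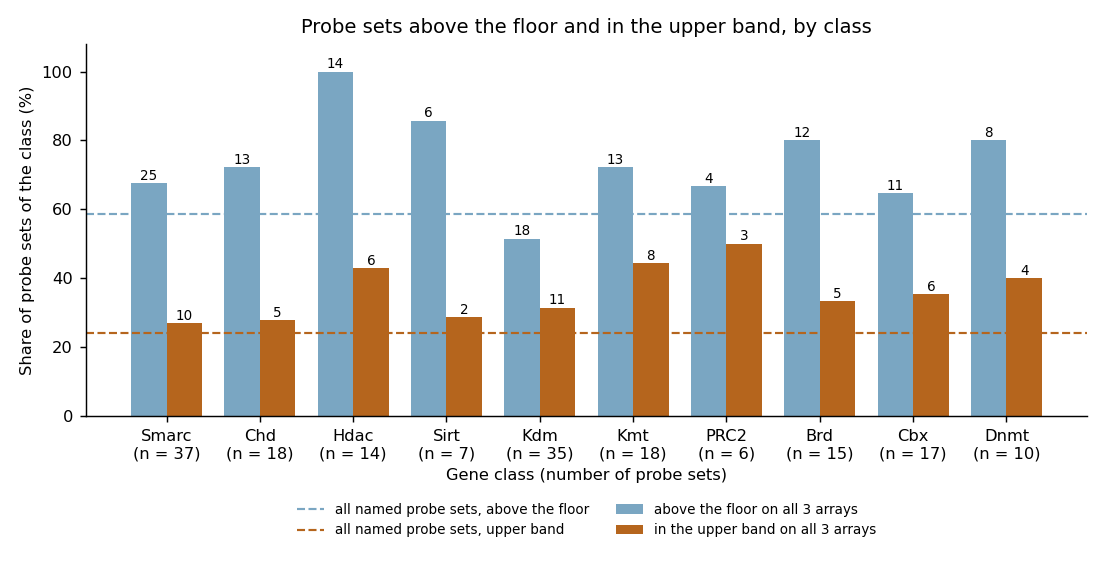
Share of the probe sets of each class (vertical axis, %) above the floor (blue bars) and in the upper band (brown bars) on all 3 arrays, with the number of probe sets over each bar. Dashed lines give the same shares of all named probe sets, 58.7% and 24.2%; the Hdac bar reaches 100% and the Kdm bar, at 51.4%, lies below its line.

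The ATPases of the BAF complex were both read well above the floor. Smarca4, also called Brg1, read 181, 113 and 133 in replicates 1, 2 and 3 on one design C probe set (percentile 89.8 ± 2.2; SD, n = 3 here and below), and 115, 129 and 104 on another (87.4 ± 2.2). On design A it read 136, 156 and 126 (81.4 ± 1.4), while a further design A probe set read 13.1, 14.1 and 16.3 (11.7 ± 1.8). The alternative ATPase Smarca2, or Brm, read 215, 223 and 206 on design B (91.2 ± 0.78), 104, 80.0 and 81.2 on design A (71.8 ± 3.3) and 26.9, 29.0 and 37.0 on design C (47.6 ± 6.9). The percentiles of their strongest probe sets, on different designs, differed by less than the SD of the Smarca4 value. However, that Smarca2 probe set and the Smarca4 one at 87.4 carry the suffix f in their names, described below for Smarcd2. The Smarca2 probe sets with plain names were those at 71.8 and 47.6.

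Subunits shared by BAF complexes were spread over the whole scale. Smarcb1, a core subunit, read 135, 165 and 137 (82.3 ± 1.7), and Smarcd1 read 93.4, 105 and 99.1 (74.8 ± 1.2). Smarce1, which has an HMG domain, read 147, 175 and 136 on design A (83.1 ± 1.7) and 20.6, 20.2 and 20.9 on design C (31.7 ± 0.50). The scaffold subunit Smarcc1 read 596, 379 and 459 on design A (94.99 ± 1.5) and 17.6, 17.4 and 16.4 on design B (16.3 ± 1.4), and its paralog Smarcc2 read 57.1, 45.3 and 50.0 (55.6 ± 4.1). Each of these probe sets kept its side of the floor on all 3 arrays, so the gap between probe sets of Smarcc1, 78.7 points, is far larger than the spread between arrays.

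Smarcd2 gave the highest percentile of all 177 probe sets. It read 1592, 1486 and 1296 (99.0 ± 0.14) on a design A probe set whose name carries the suffix f, which the maker gave to probe sets that match a family of sequences. The other Smarcd2 probe sets lay at 74.3, 46.3 and 40.1. Smarcd3, its paralog of heart and neural complexes, had probe sets from 9.14 to 73.6, of which 2 of 5 were above the floor.

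Remodellers of the ISWI type differed. Smarca5 read 241, 243 and 228 on design B (92.5 ± 0.54) and lay at 48.1 and 47.8 on design A. Its paralog Smarca1 read 31.8, 39.5 and 21.8 (46.8 ± 12), 11.98, 14.3 and 10.3 (15.8 ± 4.1) and 5.53, 7.99 and 5.37 (4.87 ± 2.7), and none of these passed the floor on all 3 arrays. The helicases Smarcad1 and Smarcal1, which share the name but are no BAF subunits, had their strongest probe sets at 72.6 ± 1.3 and 78.5 ± 1.1.

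Chd4 stood near the top of its array. It read 1284, 1224 and 1407 on design A (98.8 ± 0.21), again on a probe set with the suffix f, and 256, 229 and 130 (89.5 ± 5.6) and 79.3, 81.6 and 81.0 (71.3 ± 0.80) on design B. After alignment of the array medians, the replicates of the former design B probe set spanned 1.01 log2 units, replicate 3 being low. Only 1.04% of all named probe sets above the floor spanned more than 1 log2 unit, and 2 of the 124 members above the floor did.

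Other Chd remodellers were also read above the floor by at least 1 probe set, 7 of 7 genes in all, against 72.4% of all genes and 80.4% to 94.6% of those with 2 to 4 probe sets, as all but Chd2 have. Chd2 read 331, 293 and 307 (95.2 ± 0.21). Chd1, which binds a methyl mark of active promoters, read 250, 203 and 185 on design A (87.8 ± 1.4) but 18.7, 18.5 and 19.4 on design B (18.8 ± 0.21). Chd7, mutated in CHARGE syndrome, ranged from 13.8 ± 3.2 on design A to 74.6 ± 2.7 on design B. Chd5, known mainly from neurons, read 83.4, 77.4 and 78.8 on design C (79.9 ± 0.45) and 79.4, 60.6 and 75.7 on design B (67.4 ± 4.3). Chd8 lay at 69.3 and 31.6, and Chd1l at 78.5 and 34.2.

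Deacetylases were the class with no probe set below the floor. Every one of the 14 probe sets of 9 genes passed the floor, and their percentiles ran from 44.7 to 94.7. The lowest, an Hdac4 probe set on design C, passed by a hair, reading 25.41 in replicate 3 against a floor of 25.408 on that array. With the floor at the 50th percentile 11 of 14 passed (78.6%), against 48.8% of all named probe sets. Under another threshold, the 90th percentile of probe sets of tissue-foreign genes on the same design, 6 of 14 passed (42.9%), against 37.1% of all named probe sets. The full count therefore rests on the floor used. That threshold was far stricter than the floor on designs A and C, but lay between percentiles 38.8 and 43.2 on design B. Hdac7, a class IIa enzyme that shuttles between nucleus and cytoplasm, read 451, 507 and 396 (94.7 ± 0.50). The other class IIa enzymes followed, with Hdac9 at 166, 86.8 and 84.3 on design C (85.0 ± 5.5), Hdac4 at 159, 106 and 151 on design B (83.9 ± 3.9) and Hdac5 at 152, 192 and 138 on design A (83.8 ± 2.2). The other Hdac4 probe sets lay at 49.1 on design B and at 71.8, 56.5 and 44.7 on design C. Hdac9 rested on 1 probe set whose replicates spanned 0.96 log2 units, replicate 1 being high, and its name carries the suffix i, used where fewer probes than usual were kept.

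Class I enzymes were measured on design A alone. Hdac2 read 126, 142 and 143 (81.1 ± 1.8), Hdac3 read 64.8, 73.7 and 69.8 (65.6 ± 1.9) and Hdac1 read 63.2, 66.9 and 63.4 (63.5 ± 0.82). On each of the 3 arrays Hdac2 read highest and Hdac1 lowest, with Hdac3 between them. The tubulin deacetylase Hdac6 read 47.6, 49.6 and 41.9 (51.9 ± 3.6), and the class IV enzyme Hdac11 had a design B probe set at 82.3 ± 1.8 and a design C one at 61.8 ± 1.2. Class medians were 77.8 over 8 class IIa probe sets and 65.6 over 3 of class I. With 1 probe set for most genes, that difference cannot be told apart from a difference between probes.

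Among the sirtuins, the NAD-dependent deacylases, Sirt7 and Sirt5 were in the upper band. Sirt7 of the nucleolus read 155, 170 and 169 (87.3 ± 1.1) and mitochondrial Sirt5 read 142, 134 and 152 (84.9 ± 0.89). Sirt2, mainly cytoplasmic, read 56.7, 60.3 and 58.0 (60.4 ± 0.77) and mitochondrial Sirt3 read 49.2, 62.5 and 48.3 (56.9 ± 4.8). Sirt1 lay at 58.4 ± 3.2 and 52.5 ± 5.3 on design B and read 27.8, 22.9 and 29.8 on design A (30.2 ± 4.7), below the floor.

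**Figure D3:**
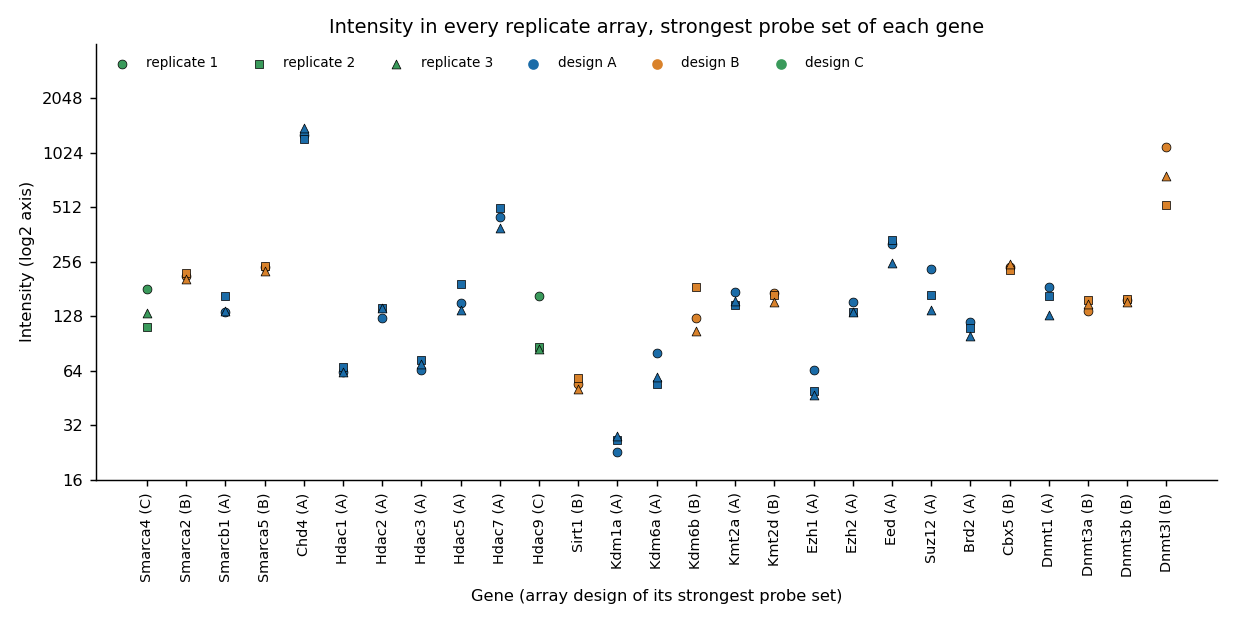
Intensity on a log2 axis (vertical) in each of the 3 replicate arrays (circle, square, triangle) for the probe set of highest percentile of 27 member genes (horizontal), coloured by array design. Chd4, Dnmt3l and Hdac7 read highest and Kdm1a lowest; the replicates of Dnmt3l span 529 to 1108 and those of Hdac9 84.3 to 166, while most genes vary far less.

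Percentiles of the demethylases ran from 2.27 to 93.0. Kdm2a, which binds unmethylated CpG, read 229, 274 and 242 (93.0 ± 1.4) and 84.4, 74.8 and 76.9 (70.4 ± 1.7) on design B probe sets with plain names. On another design B probe set, whose name carries the suffix r, it read 6.31, 8.41 and 8.03 (3.18 ± 1.1). Its paralog Kdm2b, which recruits a variant Polycomb complex, read 150, 141 and 151 (85.5 ± 0.22). Kdm7a read 237, 206 and 204 (91.2 ± 0.85), but its 3 other probe sets lay at 38.8, 4.19 and 2.27. The flavin-dependent enzymes Kdm1a (Lsd1) and Kdm1b each rested on 1 probe set, at 22.8, 26.6 and 27.9 (28.8 ± 3.1) and at 11.8, 13.6 and 13.7 (10.1 ± 1.5), all below the floor.

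Both demethylases of the Polycomb mark were read above the floor on 1 member probe set each. Kdm6b (Jmjd3) read 126, 187 and 106 (83.5 ± 5.7). Kdm6a (Utx) read 80.3, 54.0 and 59.1 on design A (62.9 ± 6.3) and fell below the floor on design B (4.14 ± 1.9) and design C (29.1 ± 2.0). Kdm3a, a hypoxia-responsive enzyme, read 154, 157 and 153 on design A (83.4 ± 0.48). On design C it read 29.1, 25.1 and 30.6 (44.1 ± 4.3) and did not pass the floor on all 3 arrays. Kdm4c read 136, 126 and 136 on design B (83.6 ± 0.48). Of the Kdm5 enzymes, which act on a mark of active promoters, X-linked Kdm5c read 257, 248 and 215 (92.5 ± 1.0) and 156, 151 and 159 (86.4 ± 0.23) on design B, but lay at 29.3 and 10.8 on design C. Y-linked Kdm5d passed the floor with 1 of 3 probe sets, which read 59.4, 44.9 and 55.1 (57.1 ± 5.0) and carries the suffix f.

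Genes of the Kmt2 family were all in the upper band on at least 1 probe set, 4 of 4 genes. Kmt2a, Kmt2c and Kmt2d are known for marks of active promoters and enhancers. Of all genes 36% were in that band, and of those with 2 probe sets, as Kmt2a and Kmt2c have, 41.6%. Kmt2d has 1 probe set and Kmt2e has 5, and 23.8% and 66.9% of all genes with those numbers reached the band. Kmt2e read 289, 283 and 267 on design A (90.9 ± 0.24) and 283, 184 and 217 on design B (91.6 ± 2.3), while its other 3 probe sets lay at 65.7, 25.3 and 4.61. Kmt2d read 173, 168 and 155 (87.3 ± 0.97), Kmt2a read 174, 149 and 155 (83.9 ± 1.6) and 36.3, 37.4 and 37.6 (43.3 ± 0.22), and Kmt2c read 126, 104 and 116 (80.6 ± 1.7) and, on design C, 40.6, 36.7 and 29.9 (53.3 ± 5.8). The Kmt5 enzymes methylate histone H4. Kmt5b lay at 84.2 ± 0.89 on its strongest of 5 probe sets, Kmt5a at 82.1 ± 2.0 and Kmt5c at 54.1 ± 1.5.

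The core of PRC2 was measured on design A alone. Eed, which binds the Polycomb mark, read 320, 340 and 251 (91.6 ± 1.0). The catalytic subunit Ezh2 read 154, 135 and 135 (81.7 ± 1.5), and its alternative Ezh1, typical of non-dividing cells, read 64.7, 49.4 and 46.9 (56.7 ± 5.9). Ezh2 therefore read higher than Ezh1 on every array, although each rests on 1 probe set with its own hybridisation. Suz12 read 234, 169 and 139 on one probe set (85.2 ± 3.3) and between 20.5 and 24.1 on the other 2 (24.5 ± 2.6 and 22.3 ± 2.6).

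Readers of acetylation and methylation included several high probe sets. Brd1 read 662, 581 and 629 on design B (98.6 ± 0.052) and 44.5, 38.2 and 39.0 on design A (46.7 ± 3.5). Brd3 read 358, 352 and 310 on design C (96.8 ± 0.53) and lay at 78.3, 66.9 and 50.5 on its 3 other probe sets, all above the floor. Both of these highest readings come from probe sets with the suffix f. Brd2, a BET protein like Brd3, read 119, 110 and 99.2 (76.7 ± 1.3). Brd8 read 170, 100 and 130 on design C (88.8 ± 3.0) and ranged down to 7.02, and Brd7, a PBAF subunit, ranged from 0.998 to 75.8. The lowest Brd7 probe set read 1.74, 6.10 and 3.03, a span of 1.79 log2 units far below the floor.

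Of the chromobox genes, the HP1 protein Cbx5 was above the floor on all 5 of its probe sets, and read 239, 230 and 251 on design B (92.7 ± 0.52). Cbx1 read 166, 125 and 145 on design A (82.2 ± 2.9) and 77.7, 86.5 and 73.3 on design C (79.7 ± 2.5), and 6.39, 9.16 and 9.0 on the other design A probe set (4.25 ± 1.2). Cbx3 had a single member probe set at 12.4 ± 3.5. Design A probe sets assigned to both Cbx3 and a pseudogene, Cbx3-ps5, are no members by the rule. The higher read 514, 426 and 806 (95.8 ± 1.8), and the lower read 24.4, 28.5 and 29.5 (31.2 ± 3.0), below the floor. Among Polycomb readers the highest reading was that of Cbx6, at 524, 519 and 357 on a design A probe set with the suffix s (94.9 ± 1.1). Its other probe sets lay at 72.6 on design A and at 81.5 and 34.8 on design B, the last below the floor. Replicate 3 was the lowest on both design A probe sets of Cbx6. Cbx2 lay at 55.2 and 22.9, and Cbx7 at 19.0 and 7.83, below the floor on both.

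DNA methyltransferases all had a probe set in the upper band, 4 of 4 genes, against 36% of all genes. Each has 2 or 4 probe sets, and 41.6% and 63.8% of all genes with those numbers reached the band. Maintenance enzyme Dnmt1 read 186, 167 and 130 on design A (83.8 ± 2.5), with replicate 3 lowest, and 44.7, 41.2 and 46.5 on a second probe set (50.1 ± 2.4). Dnmt3a read 138, 157 and 149 on design B (85.5 ± 1.5) and 68.9, 69.2 and 59.1 on design C (74.9 ± 2.7), but only 11.3, 14.4 and 11.3 (8.87 ± 2.3) and 7.75, 8.10 and 6.86 (3.70 ± 0.71) on design A. Dnmt3b read 159, 159 and 153 (86.6 ± 0.55) and 74.3, 74.9 and 70.7 (68.3 ± 1.1).

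Dnmt3l, a cofactor without catalytic activity that is best known from germ cells, had the next highest percentile of all members after Smarcd2. Its design B probe set, with a plain name, read 1108, 529 and 765 (99.0 ± 0.52), a span of 1.05 log2 units. Its design C probe set, with the suffix f, read 33.6, 33.8 and 34.3 (51.6 ± 0.70). The 2 probe sets therefore give very different positions, each repeated over its replicates, and which of them follows the Dnmt3l transcript was not tested.

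The promoters of these genes were examined for CpG, the dinucleotide that Dnmt enzymes methylate and that Kdm2a, Kdm2b and Kmt2a bind when it is unmethylated. RefSeq promoters (GRCm38.p6) were found for 63 of the 77 genes, and the 250 bases before the start were counted, with the richest start of each gene where several were listed. Members held a median of 22 CpG, against 14 over all 12681 genes on the arrays with a promoter. At least 10 were found in 57 of 63 members (90.5%), against 66.1% of all. Member genes with a probe set in the upper band held a median of 23 CpG and the other members 21, so CpG number hardly differed with the position on the arrays. The motif CG reads the same on both strands. The sequences of 3 members are shown for the range, Kdm7a with the most CpG of any member (56), Hdac7 with 25 near the member median, and Dnmt3l with 5, with every CpG in capitals. They lie at chr6:39206774-39207023 on the minus strand, chr15:97831496-97831745 on the minus strand and chr10:78042037-78042286 on the plus strand.
Kdm7a: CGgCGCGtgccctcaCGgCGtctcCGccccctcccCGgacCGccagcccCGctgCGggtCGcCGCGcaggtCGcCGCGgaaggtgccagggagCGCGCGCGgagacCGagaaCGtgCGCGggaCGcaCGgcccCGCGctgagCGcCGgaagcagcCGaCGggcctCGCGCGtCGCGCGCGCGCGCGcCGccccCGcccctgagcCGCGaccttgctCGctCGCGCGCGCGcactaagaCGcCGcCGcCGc
Hdac7: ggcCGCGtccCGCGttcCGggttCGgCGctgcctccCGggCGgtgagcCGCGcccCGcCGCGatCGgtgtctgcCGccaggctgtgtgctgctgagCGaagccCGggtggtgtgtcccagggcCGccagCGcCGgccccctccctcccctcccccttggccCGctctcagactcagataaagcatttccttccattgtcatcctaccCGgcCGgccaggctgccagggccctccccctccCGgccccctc
Dnmt3l: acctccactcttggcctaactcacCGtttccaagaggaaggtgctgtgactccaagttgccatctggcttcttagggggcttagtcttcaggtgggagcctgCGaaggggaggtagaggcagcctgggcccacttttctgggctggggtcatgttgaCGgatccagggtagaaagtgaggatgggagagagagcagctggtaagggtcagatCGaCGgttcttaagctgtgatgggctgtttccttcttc

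Capitals run through the whole Kdm7a window, cluster in the part of the Hdac7 window farther from the start, and are scattered in that of Dnmt3l. Other CpG-poor members were Hdac9 with 2, Smarcd2 with 4 and Smarca1 with 6. No methylation was measured in these cells, so the counts describe sequence only.

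Probe sets of the same gene often disagreed. Of the 77 genes, 47 had 2 to 5 probe sets, and the median gap between the highest and the lowest was 46.3 percentile points, beside 37.6 over all 7645 genes with several. Gaps above 50 points were found in 21 of 47 (44.7%), against 35.1% of all such genes, and 30 of 47 (63.8%) had some above the floor and some not, against 57.1%. The widest were those of Kdm2a (89.8 points), Kdm7a (89.0), Kmt2e (87.0), Dnmt3a (81.8) and Brd8 (81.8). The lowest probe sets of Kdm2a and Dnmt3a carry the suffix r, and those of Kdm7a, Kmt2e and Brd8 have plain names. Every probe set was on the same side of the floor for Cbx5, Hdac4, Brd3, Chd4, Dnmt1, Dnmt3b and others.

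Suffixes went with part of this. Of 12 members with the suffix f, 11 were above the floor, with a median percentile of 80.4, beside 58.4 for all 2289 named probe sets with that suffix. They made up 4 of the 6 members above percentile 95. Of 16 members with the suffix r, given where some probe rules were dropped, 8 were above the floor, with a median of 37.98, beside 35.01 for all 2479. Below percentile 10 lay 13 members, of which 7 carried a suffix. The 140 members with plain names had a median of 65.1, beside 53.7 for all 22088. The part of suffixes in the levels was not tested.

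**Figure D4:**
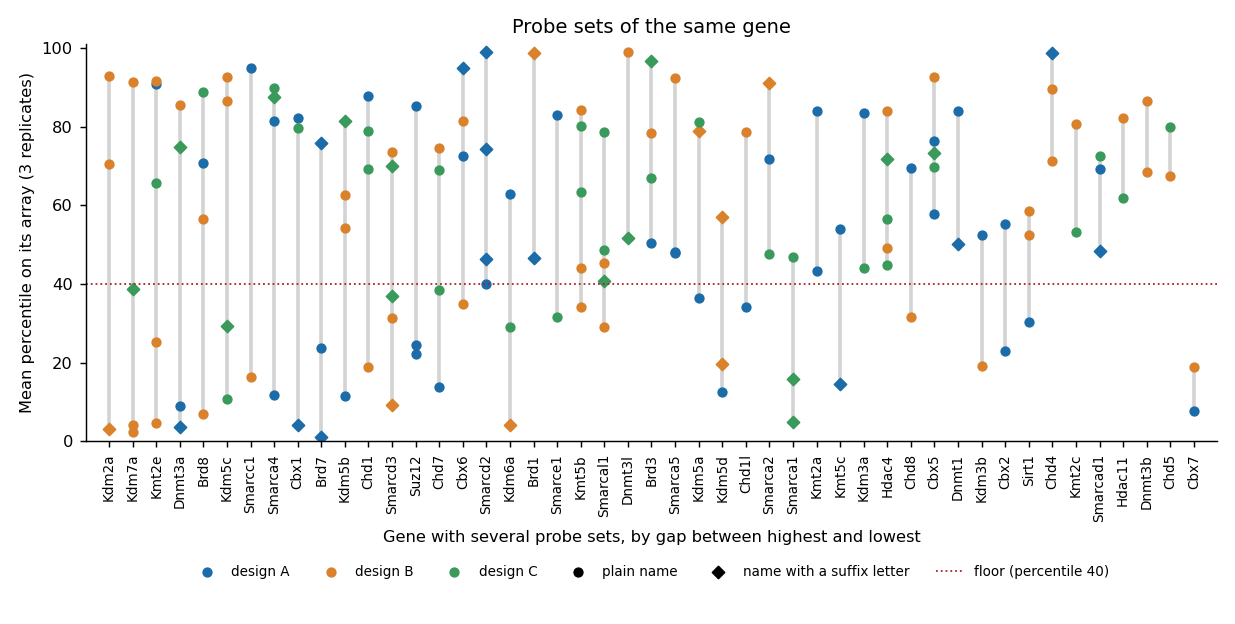
Mean percentile over 3 replicate arrays (vertical axis) of every probe set of the 47 genes with several (horizontal axis, ordered by gap), coloured by design, with circles for plain names and diamonds for names with a suffix letter; grey lines join the probe sets of a gene and the dotted line is the floor at 40. Kdm2a has the widest gap, 89.8 points, and 30 of the 47 genes straddle the floor.

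Replicates were close for most members. The median SD over 3 replicates was 0.13 on the log2 scale, as for all named probe sets (0.13), and 0.18 for PRC2, 0.16 for Smarc and 0.11 for Dnmt. On design C, replicate 1 was the highest of the 3 arrays for 23 of 44 members (52.3%), against 37.1% of all named probe sets there, and for 4 of 5 Chd probe sets. Examples were Chd1, with 104, 61.7 and 74.4 on one probe set and 69.9, 43.3 and 56.1 on another. On design A, replicate 3 was the highest for 13 of 68 members (19.1%), against 30.6%, and on design B for 12 of 65 (18.5%), against 28.5%. Array medians had been aligned before this count. Correlations of log2 intensities between replicates over the members were 0.985 to 0.991 on design A, 0.985 to 0.989 on design B and 0.960 to 0.976 on design C, beside 0.981 to 0.984 over all probe sets of design C.

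Partner genes outside the naming rule were followed with 8 lists. Partners of ISWI, INO80 and SRCAP remodellers had 29 of 47 probe sets above the floor (61.7%) and a median percentile of 58.2, close to the 58.7% and 52.1 of all named probe sets. NuRD, Sin3 and CoREST partners had 13 of 19 (68.4%) and 60.3, with the histone-binding Rbbp7 at 98.1. BAF and PBAF subunits outside Smarc had 24 of 40 (60%) and 50.2, and the 3 probe sets of Bcl11b, a lymphoid and neural subunit, lay between 4.44 and 10.2. Polycomb repressive complex 1 had 16 of 24 (66.7%) and 54.6, with Bmi1 at 96.6, and the accessory subunits of PRC2 had 10 of 12 (83.3%) and 68.0, with Jarid2 at 88.6, 69.7 and 97.4.

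Acetyltransferases had 14 of 23 probe sets above the floor (60.9%), near the 58.7% of all named probe sets, and a median of 53.9. Within that list Crebbp lay at 87.6 on design A and from 48.9 to 93.4 on design B, and Ep300, its close relative, at 25.7 and 8.61. Methyltransferases outside Kmt had 22 of 32 above the floor (68.8%) and a median of 67.4, with Prmt1 at 89.7. Methyl-CpG binding and demethylating proteins had the lowest median, 38.9 against 52.1 of all named probe sets, and the lowest share above the floor, 9 of 21 (42.9%). By gene the side turned, with 8 of 10 above the floor, against 72.4% of all genes, though 8 of the 10 had several probe sets. At the tissue-foreign threshold 38.1% of the probe sets passed, against 37.1% of all. Within this list, Uhrf1, the partner of Dnmt1, had percentiles of 75.8 (design A) and 85.1 (design C), and Uhrf2 had 99.1 (design B) and 4.41 (design C). The 5 probe sets of the demethylating dioxygenase Tet1 lay between 6.06 and 43.0.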

How the data were processed

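RNA of sorted retinal GFP-positive cells was measured on 9 Affymetrix arrays, 3 for each of 3 designs. The authors deposited 1 intensity per probe set and array on a linear scale; how probes were summarised and scaled is not stated in the labels or files. Designs were kept apart, and each intensity was turned into its percentile on its array. For replicate SDs, log2 intensities were centred on the array median, and a value of 0 took the smallest positive value of its array. Genes came from the platform annotation, updated symbols and promoters from RefSeq (GRCm38.p6). Arrays give no read depth, and 3 arrays per design limit the precision.

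The members, classes and lists were chosen with earlier results of these data known. Genes named were a preset list, per class the 3 highest and the 1 lowest probe sets, members above the floor whose replicates spanned over 1 log2 unit, and the 5 genes with the widest gaps. Other members and all partner genes named as examples were chosen after their values were seen. With 1 condition, no test was made. Scripts were tested on simulated data and ran in Python 3.11.15 with numpy 2.4.6 and pandas 2.3.3. Alternatives covered probe set suffixes, 1 value per gene, design A alone, other floors, a pseudocount of 50, quantile normalization and leaving out each replicate.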

Additional observations from a re-analysis of the deposited data

How the results depend on the processing

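Class medians moved most with the choice of probe sets. With plain names only, the median percentile was 53.7 for all named probe sets, 65.1 for the members, 55.6 for Smarc, 64.5 for Hdac, 54.3 for Kdm, 64.7 for Brd, 63.8 for Cbx and 84.7 for Dnmt. With the mean per gene it was 62.8 for Smarc, 63.7 for Chd, 72.0 for Hdac, 53.6 for Kdm and 47.2 for Cbx. With the strongest probe set per gene it was 65.9 for all genes, 82.3 for the members, 82.3 for Smarc, 79.9 for Chd, 82.3 for Hdac, 81.3 for Kdm, 83.9 for Kmt, 83.5 for PRC2, 82.7 for Brd and 86.0 for Dnmt. The strongest probe set lay higher in genes with more probe sets, and the members had more per gene than all genes. On design A alone it was 51.4 for all named probe sets, 59.1 for the members, 71.8 for Smarc, 73.3 for Hdac, 36.5 for Kdm, 68.1 for Kmt, 50.5 for Brd, 57.7 for Cbx and 29.5 for Dnmt.

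Under the tissue-foreign threshold, counts above it were 10796 for all named probe sets, 77 for the members, 15 for Smarc, 6 for Hdac, 7 for Kmt, 5 for Cbx, 5 for Dnmt, 10 for Polycomb repressive complex 1, 8 for NuRD, Sin3 and CoREST partners and 15 for BAF and PBAF subunits. That threshold rests on 55 probe sets on design A, 5 on B and 13 on C, and lay between percentiles 38.8 and 85.9, so it is uneven. With plain names only, 7 of 9 Brd and 5 of 6 Dnmt probe sets were above the floor, fewer being counted.

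The median replicate SD was 0.058 for members and 0.053 for all with a pseudocount of 50, 0.12 for both above the floor, and 0.13 for all after quantile normalization. The median gap between probe sets of a gene was 40.6 for members and 32.8 for all with plain names only.

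Leaving out 1 replicate in turn gave medians of 50.3 to 53.2 for Smarc, 70.2 to 72.1 for Chd, 68.5 to 68.8 for Hdac, 52.3 to 52.7 for Kdm, 52.1 to 52.2 for all named probe sets and 63.7 to 63.9 for members, replicate SDs of 0.101 to 0.117 for members and 0.105 to 0.109 for all, and gaps of 46.7 to 47.7. The cause of these shifts was not tested. No paired analysis was possible because all arrays belong to 1 condition and each design has its own probe sets.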
